A study of Mus musculus with 6 samples.

Results

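The extracellular matrix and basement membrane genes are a set of 40 genes, listed by symbol, that encode collagens, laminins, nidogens, perlecan, small proteoglycans, elastic fibre proteins and the enzymes and inhibitors that shape them. All probe sets annotated to these symbols or their synonyms on the Affymetrix Mouse430A_2 array were taken, which gave 74 probe sets for 39 of the 40 genes out of 22626 probe sets and 12393 named genes tested. Fbn1 was not analysed here. The samples were 6 RNA samples of testis cells, each on 1 array. Of these, 3 arrays carried RNA titled spermatogonial stem cells, the germ cells that sustain sperm production, isolated with magnetic beads against a human CD4 surface marker, with 50 males used per preparation. The other 3 arrays were titled total testicular cells and are called total cell arrays here, while their source field names CD4-negative cells, so whether they were unsorted or depleted is not settled by the labels. All 6 came from mice carrying the same transgene (CD4HAglo), in which a truncated promoter of Stra8, a germ cell gene, drives the marker. Strain and age are not given in the sources used here. The labels do not say whether the 3 arrays of a group came from separate preparations, so the p-values measure the spread between these arrays, which may in part be technical.

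In the testis the seminiferous tubules are wrapped by a basement membrane on which Sertoli cells and spermatogonia rest, and by collagen-bearing peritubular layers beyond it. A basement membrane is built from a network of type IV collagen and a network of laminin trimers, which nidogens and perlecan join. Interstitial matrix outside it is made of fibrils of type I, III and V collagen with beaded filaments of type VI collagen, and is laid down mainly by mesenchymal cells. In these bulk samples, more cells of a matrix-producing type and more matrix RNA per cell cannot be told apart.

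Signal limited the comparison for many of these genes. Values are log2 expression values as deposited, and each gene is represented by the probe set whose mean over the 6 arrays was highest. Background on this scale lay at 2.15 (the 95th percentile of probe sets for bacterial controls). Of the 39 genes, 36 were above background on all 6 arrays. For 19 of 39 the mean of the total cell arrays lay less than 1 log2 unit above background or below it. Over all 12393 genes these counts were 9790 and 5013, so low signal was not particular to the matrix genes. Stem cell replicate 1 stood apart from the other arrays on the first principal component of all probe sets (72.9% of the variance), at a score of 78.7 against 18.8 and 15.3 for stem cell replicates 2 and 3 and −45.3 to −29.3 for the total cell arrays. Its mean on the hybridization controls was 8.96, against 8.38 to 8.51 on the other 5 arrays.

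Most matrix genes had higher values in stem cell arrays, and only 1 of 39 passed the test over all probe sets. The log2 difference (stem cell minus total cell arrays) was above 0 for 30 of 39 genes, where 43.0% of all genes lay above 0, and its median was 0.42 against −0.054 over all genes. Dcn rose and no member fell at a limma adjusted p under 0.05, where 1.63% of all genes rose and 0.137% fell. At an unadjusted p under 0.05, 18 of 39 were higher and 2 lower, against 11.8% and 13.1% of all genes. The 3 stem cell values lay above all 3 total cell values for 18 of 39 genes (46.2%), where 13.8% of all genes did so. They lay below all 3 for 2 of 39 (5.13%), where 19.2% of all genes did so. Of the 74 probe sets, 57 (77.0%) had a difference above 0, against 45.0% of all probe sets. Of these 74, 3 rose and 0 fell, against 1.40% and 0.150% of all probe sets: the probe set of Dcn and a pair of probe sets of Timp2.

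**Figure D1:**
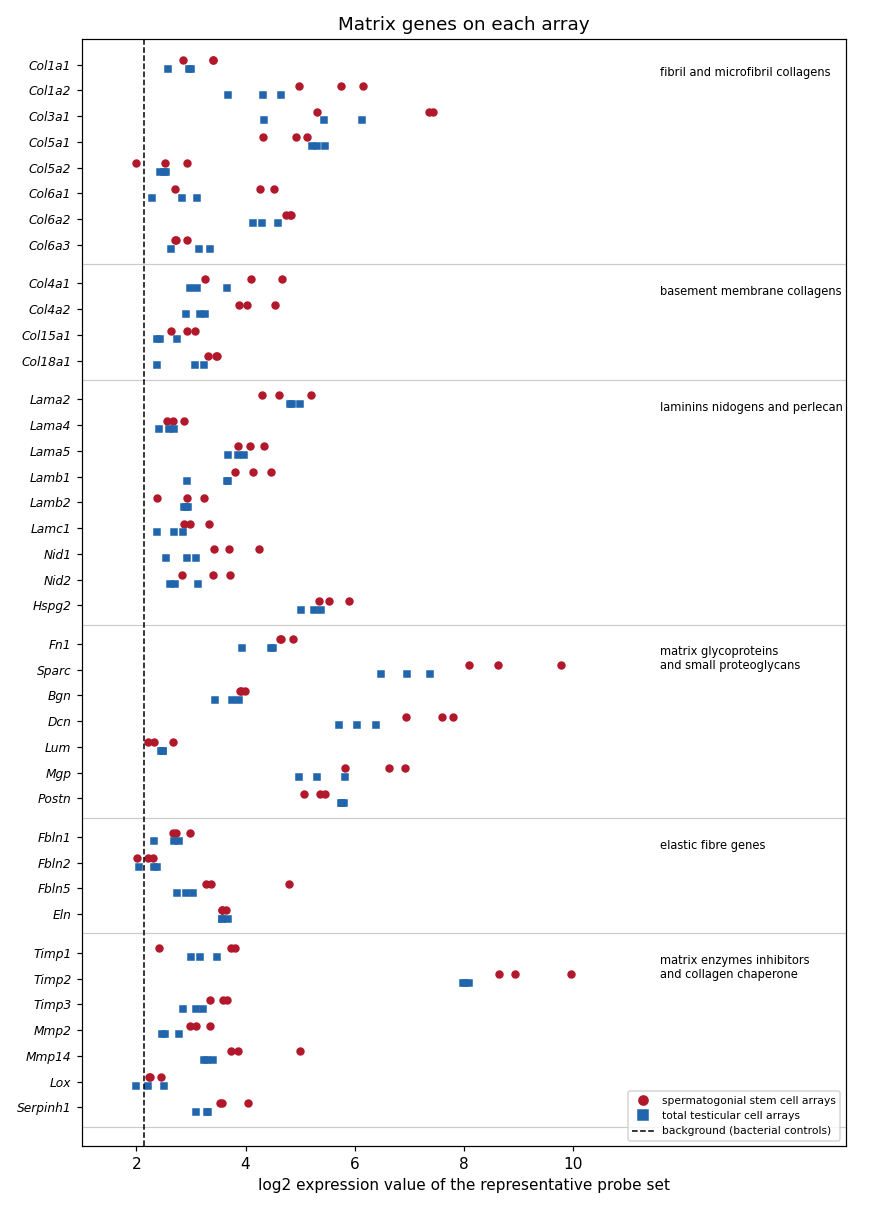
Log2 expression value (horizontal axis) of the representative probe set of each of 39 matrix genes (rows, by class), with a circle for each of 3 stem cell arrays above a square for each of 3 total cell arrays. The dashed line is background at 2.15. Sparc, Dcn and Timp2 show circles clear of the squares, while many laminin and elastic fibre genes sit near the line.

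The secreted glycoproteins and small proteoglycans held the member that passed on its representative probe set. Dcn, which encodes decorin, a leucine-rich proteoglycan that binds collagen fibrils, had values of 7.80, 7.61 and 6.95 on stem cell arrays 1, 2 and 3, against 6.04, 6.38 and 5.70 on total cell arrays 1, 2 and 3. The groups did not overlap, and replicate 3 was the lowest array of each group. Dcn averaged 7.45 ± 0.45 in stem cell arrays and 6.04 ± 0.34 in total cell arrays (SD, n = 3 each). This is a log2 difference of 1.41 ± 0.26 (SE), or 2.66-fold, with limma adjusted p = 0.0405. Leaving out any of the 3 total cell arrays ended this call (adjusted p = 0.203, 0.0937 and 0.202 without replicates 1, 2 and 3), with differences of 1.41, 1.58 and 1.24.

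Sparc encodes a matrix-associated glycoprotein (osteonectin) that binds collagen and is made by Sertoli and Leydig cells among others. It had the largest difference among the representative probe sets of the members. Its values were 9.78, 8.62 and 8.09 in stem cell arrays, against 6.95, 7.38 and 6.49 in total cell arrays. The groups did not overlap, and stem cell array 1 was the highest by more than 1 log2 unit. The log2 difference was 1.89 ± 0.39 (SE, 3.70-fold) and just missed the threshold (adjusted p = 0.0513). The other Sparc probe set gave 1.76 (adjusted p = 0.0619). Without stem cell replicate 1 the Sparc difference was 1.41 and passed (adjusted p = 0.0284). With each array left out in turn, Sparc passed in 2 fits, and its limma adjusted p reached 0.233 in the others.

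Mgp encodes matrix Gla protein, an inhibitor of calcification. Its values were 6.63, 6.92 and 5.82 in stem cell arrays and 5.30, 5.81 and 4.99 in total cell arrays, so that the lowest stem cell value barely cleared the highest of the others (log2 difference 1.09, adjusted p = 0.0973). Fn1, the gene of fibronectin, an adhesive glycoprotein bound by integrins, differed by 0.41 (adjusted p = 0.257), and by 0.23 without total cell replicate 1. Bgn, the gene of biglycan and a relative of decorin, differed by 0.25 on its representative probe set and by up to 0.63 on the others, and did not pass. Lum, the gene of the related proteoglycan lumican, stayed near background on every array (2.22, 2.66 and 2.31 in stem cell arrays, 2.48, 2.44 and 2.49 in total cell arrays), so a difference was not detectable at this signal.

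Postn went the other way. It encodes periostin, a matricellular protein linked to collagen assembly, and had values of 5.07, 5.46 and 5.36 in stem cell arrays, against 5.80, 5.76 and 5.77 in total cell arrays. The total cell values were tight and all lay above the stem cell values. The log2 difference was −0.48 ± 0.17 (SE, adjusted p = 0.146). Postn and Col5a1 were the 2 members whose stem cell values all lay below the others, and neither passed.

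**Figure D2:**
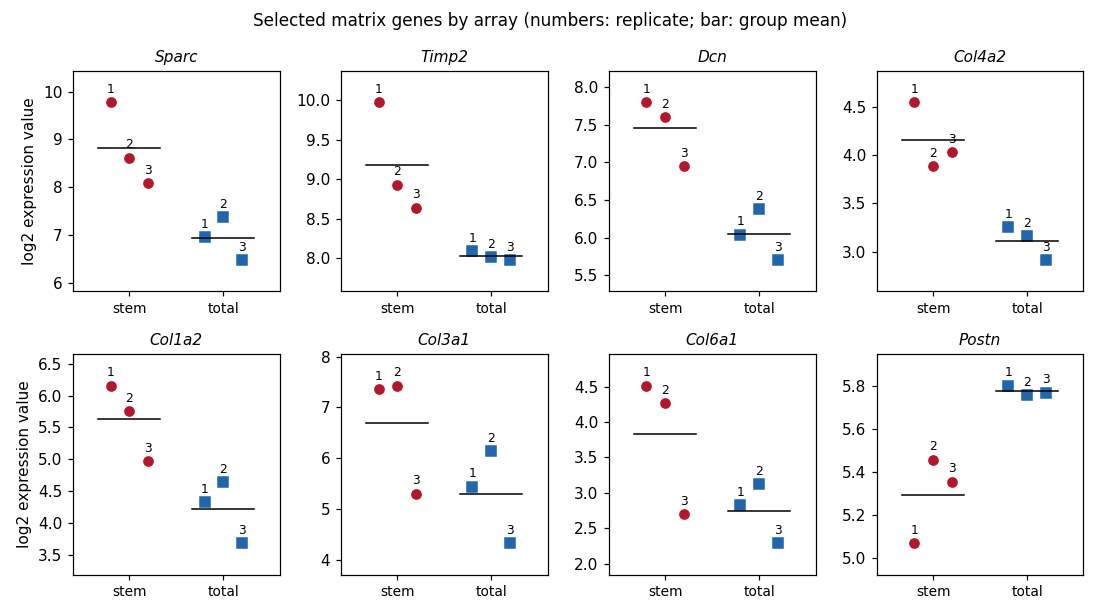
Log2 expression values (vertical axes, a separate range in each panel) of 8 matrix genes, with stem cell arrays left and total cell arrays right. Numbers give the replicate and bars the group mean. Sparc and Timp2 are highest on stem cell array 1, whereas Col3a1 and Col6a1 are high on stem cell arrays 1 and 2 and low on array 3, and Postn is lower on all stem cell arrays.

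The inhibitors and enzymes of matrix turnover were led by Timp2, which encodes a tissue inhibitor of metalloproteinases that also takes part in activating MMP2 at the cell surface. On its representative probe set the values were 9.98, 8.93 and 8.64 in stem cell arrays, against 8.09, 8.02 and 7.98 in total cell arrays. The total cell arrays lay close together and below every stem cell array. The log2 difference was 1.15 ± 0.29 (SE, adjusted p = 0.0802). It did pass once stem cell replicate 1 (0.76, adjusted p = 0.0171) or stem cell replicate 3 (1.42, adjusted p = 0.0155) was left out. Leaving out any other array gave no pass, with limma adjusted p up to 0.279.

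Timp2 was read by 6 probe sets, and its difference depended on the probe set. A pair of them passed. The second in mean signal had 9.48, 8.15 and 7.85 in stem cell arrays and 6.44, 6.67 and 6.18 in total cell arrays (log2 difference 2.06 ± 0.37 SE, adjusted p = 0.0391). The third in mean signal had a difference of 1.97 (adjusted p = 0.0335). The fourth and the fifth gave 1.51 and 1.65, with adjusted p = 0.0676 and 0.0651. On these 5 probe sets every stem cell value lay above every total cell value, and stem cell array 1 was highest. The sixth lay at background (1.95 to 2.13 in stem cell arrays, 2.12 to 2.56 in total cell arrays) and gave −0.22. Which transcript regions these probe sets cover was not analysed here.

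**Figure D3:**
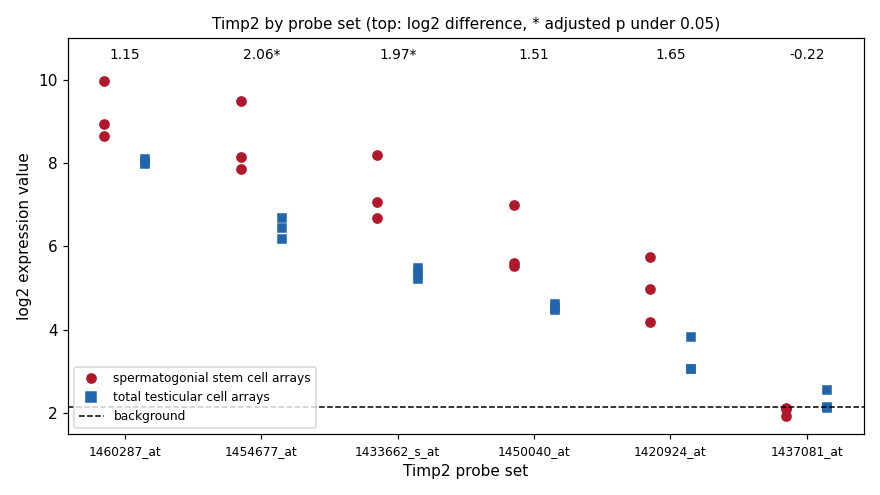
Log2 expression values (vertical axis) of the 6 Timp2 probe sets (horizontal axis), with a circle for each stem cell array left of a square for each total cell array and the log2 difference at the top. A star marks an adjusted p under 0.05 and the dashed line is background. On 5 probe sets all circles lie above all squares; the sixth lies at background.

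The other genes of this class had smaller differences. Mmp14, a membrane-bound metalloproteinase that activates MMP2, had 5.0, 3.73 and 3.86 in stem cell arrays and 3.40, 3.30 and 3.23 in total cell arrays (log2 difference 0.89, adjusted p = 0.141), with stem cell array 1 far above the rest and a difference of 0.49 without it. Mmp2, the gelatinase itself, differed by 0.55 (adjusted p = 0.107), with values from 2.97 to 3.35 in stem cell arrays against 2.47 to 2.78 in total cell arrays. Timp3, the matrix-bound inhibitor, differed by 0.47, and Serpinh1, the collagen chaperone of the endoplasmic reticulum, by 0.49 (0.32 without stem cell replicate 1). On the representative probe sets of these 4 genes the groups did not overlap, and none passed. Other probe sets of Mmp14 (0.53), Mmp2 (0.19) and Timp3 (0.30 and −0.023) had overlapping groups. A further one of Timp3 (0.16) and that of Serpinh1 (0.66) did not overlap. Timp1, a further inhibitor of metalloproteinases, had overlapping groups (3.74, 3.80 and 2.42 in stem cell arrays, 3.17, 3.48 and 3.00 in total cell arrays). Lox, the gene of lysyl oxidase, which crosslinks collagen and elastin, lay near background on all arrays.

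Basement membrane collagens were higher throughout without passing. All 4 genes of this class had positive differences, with a median of 0.64. Col4a2, the alpha 2 chain of type IV collagen, had 4.55, 3.88 and 4.03 in stem cell arrays, against 3.26, 3.16 and 2.92 in total cell arrays. The groups did not overlap, and the log2 difference of 1.04 ± 0.22 (SE) just missed the threshold (adjusted p = 0.0513). Col4a1, whose product pairs with it in the same trimer, had 4.66, 4.11 and 3.26 in stem cell arrays and 3.11, 3.66 and 2.99 in total cell arrays (0.76, adjusted p = 0.217), with overlapping groups. That difference was 0.43 without stem cell replicate 1 and 1.13 without stem cell replicate 3, where it passed (adjusted p = 0.0361). Leaving out any other array gave no pass for Col4a1, with limma adjusted p up to 0.480. Its second probe set gave 0.67 (adjusted p = 0.10) with groups that did not overlap. Col18a1, the source of endostatin, differed by 0.53 (0.27 without total cell replicate 3) and Col15a1 by 0.36. The total cell means of Col18a1, Col15a1 and Col4a2 lay less than 1 log2 unit above background.

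Among laminins and their linkers, 7 of 9 genes had positive differences and 0 passed by limma, while 3 were higher at an unadjusted p under 0.05. Over all genes, 43.0% had positive differences and 11.8% were higher at that p. Nid1, nidogen 1, which joins laminin to type IV collagen, had 4.24, 3.42 and 3.70 in stem cell arrays and 2.92, 3.09 and 2.54 in total cell arrays (log2 difference 0.94, adjusted p = 0.0830). These groups did not overlap, while its second probe set gave −0.060 near background. Lamb1, a laminin beta chain, differed by 0.72 (adjusted p = 0.150, and 0.47 without total cell replicate 3). Lamc1, the gamma chain it pairs with in many trimers, differed by 0.42 (adjusted p = 0.212). Neither overlapped on its representative probe set. Their other probe sets, near background, had overlapping groups and gave 0.067 and 0.042 for Lamb1 and −0.067 for Lamc1. Nid2 differed by 0.52 (0.32 without stem cell replicate 1) and Hspg2, the gene of the heparan sulfate proteoglycan perlecan, by 0.38 (0.23 without stem cell replicate 3), and their groups overlapped. The alpha chains differed little: Lama5 by 0.25, Lama4 by 0.14 and Lama2 by −0.19, all with overlapping groups. Lamb2 differed by −0.066.

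**Figure D4:**
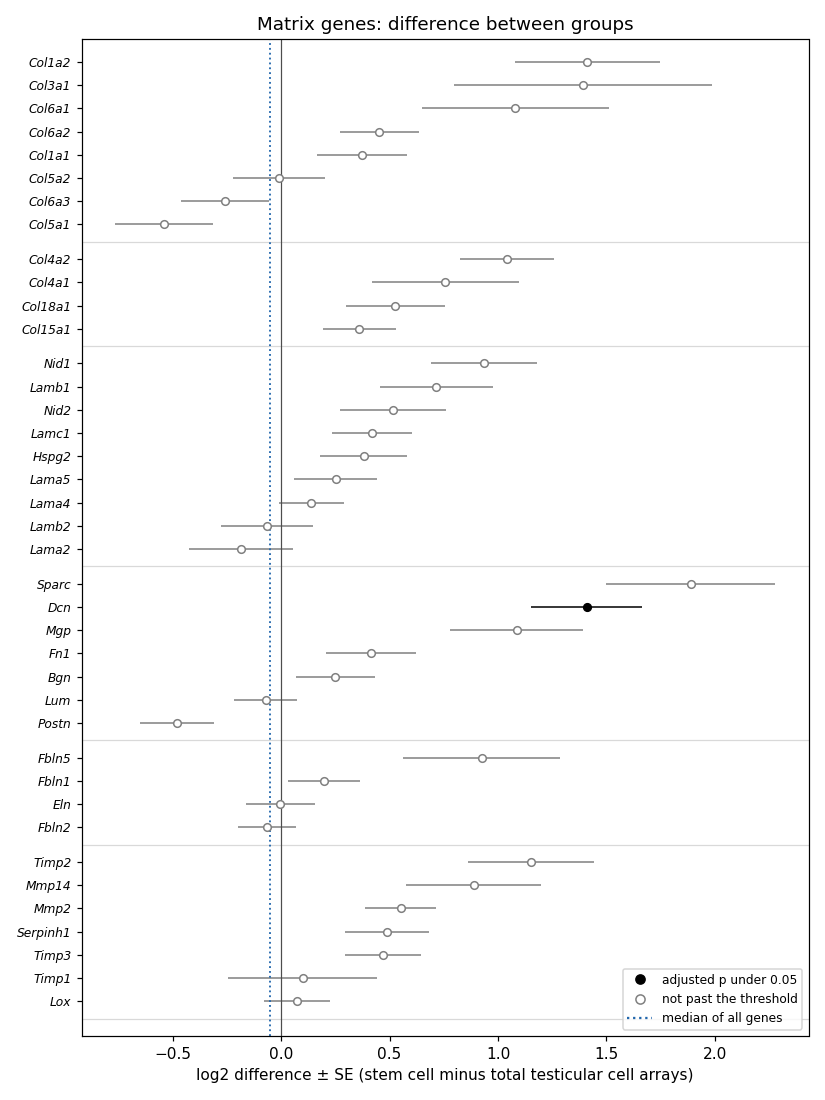
Log2 difference with its standard error (horizontal axis, stem cell minus total cell arrays, 3 arrays each) for 39 matrix genes, sorted within class in the class order used for the values by array. The filled point is Dcn, past an adjusted p of 0.05; open points did not pass. The dotted line is the median of all genes at −0.054. Points run from −0.54 (Col5a1) to 1.89 (Sparc).

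The interstitial collagens gave unequal differences, and several of their probe sets lay near background. Col1a2, the alpha 2 chain of type I collagen, had 6.16, 5.75 and 4.98 in stem cell arrays, against 4.33, 4.64 and 3.68 in total cell arrays. The groups did not overlap, and the log2 difference was 1.41 ± 0.34 (SE, adjusted p = 0.0686). The second probe set of Col1a2 gave 1.44 (limma adjusted p = 0.149) with overlapping groups. Its partner Col1a1 had 3.41, 3.40 and 2.85 in stem cell arrays and 3.00, 2.97 and 2.57 in total cell arrays, a difference of 0.37 (adjusted p = 0.308; 0.23 without total cell replicate 3), and its other probe set gave 0.086. Both Col1a1 probe sets lay near background, and levels of different probe sets were not set against each other.

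Col3a1, the chain of type III collagen, was high on a pair of the stem cell arrays only. It had 7.35, 7.43 and 5.30 in stem cell arrays and 5.44, 6.14 and 4.33 in total cell arrays, so stem cell array 3 lay inside the range of the other group. The log2 difference was 1.39 ± 0.59 (SE, adjusted p = 0.197), and 0.91 without total cell replicate 3. Its second probe set, near background, gave 0.28. Col6a1, of the beaded filaments of type VI collagen, likewise had stem cell array 3 inside the range of the other group: 4.52, 4.26 and 2.71 in stem cell arrays, against 2.83, 3.12 and 2.29 in total cell arrays (1.08, adjusted p = 0.177). Without stem cell replicate 3, Col3a1 differed by 2.09 (adjusted p = 0.0228) and Col6a1 by 1.64 (adjusted p = 0.00893), and Col1a2 by 1.74 (adjusted p = 0.0115). Leaving out any other array gave no pass for these genes. Their limma adjusted p then reached 0.494 for Col3a1, 0.445 for Col6a1 and 0.271 for Col1a2.

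The remaining chains of these families varied. Col6a2 had 4.81, 4.83 and 4.74 in stem cell arrays, against 4.29, 4.59 and 4.14 in total cell arrays. Its groups did not overlap, and it differed by 0.45 (adjusted p = 0.179). Col6a3 differed by −0.26 (adjusted p = 0.466). Col5a1, a chain of the type V collagen that nucleates fibrils, was lower: 4.32, 4.92 and 5.12 in stem cell arrays, against 5.45, 5.22 and 5.31 in total cell arrays (−0.54 ± 0.23 SE, adjusted p = 0.191), and the difference was −0.31 without stem cell replicate 1. Its other probe sets, closer to background, gave 0.12 and 0.11. Col5a2 differed by −0.011 with values near background.

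Elastic fibre genes were the class nearest to no difference. Fbln5, a fibulin needed for elastic fibre assembly, had 4.80, 3.38 and 3.28 in stem cell arrays and 2.90, 3.03 and 2.73 in total cell arrays. Its groups did not overlap, but the difference of 0.93 (adjusted p = 0.170) was 0.44 without stem cell replicate 1. Eln, the elastin gene, had nearly equal values on all 6 arrays on its representative probe set (3.56 to 3.68), with a difference of −0.0046. Its other probe set gave 0.24 with overlapping groups. Fbln1 differed by 0.20, with −0.15 on its other probe set, and Fbln2 by −0.068, all near background.

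Members that are neighbours in the genome differed unequally. By gene order among protein-coding genes of the mouse assembly GRCm38.p6, 4 pairs of members lie next to each other: Col4a1 and Col4a2 on chromosome 8, Col3a1 and Col5a2 on chromosome 1, Col6a2 and Col6a1 on chromosome 10, and Dcn and Lum on chromosome 10. Both genes of the Col4a1 and Col4a2 pair had differences of at least 0.76. In the other pairs, 1 gene differed by 1.08 or more and its neighbour by 0.45 (Col6a2), −0.011 (Col5a2) and −0.073 (Lum), the last 2 of these near background.

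Promoter sequences are shown for Timp2 and Sparc, the members with the highest signal among those whose groups did not overlap, for Col1a2, and for the pair Col4a1 and Col4a2, which is transcribed head to head. Each window runs from 250 bases before to 50 bases after a RefSeq gene start (GRCm38.p6), read 5′ to 3′ on the gene's strand, and capitals mark a match to a searched motif. Motifs searched, on both strands, were the TATA box (TATAAA), the CCAAT box (CCAAT), the GC box bound by SP1 (GGGCGG), the AP-1 site (TGANTCA) and a PU.1 site (GAGGAAGT), the factor in the series title.
Timp2, chr11:118355362-118355661, minus strand: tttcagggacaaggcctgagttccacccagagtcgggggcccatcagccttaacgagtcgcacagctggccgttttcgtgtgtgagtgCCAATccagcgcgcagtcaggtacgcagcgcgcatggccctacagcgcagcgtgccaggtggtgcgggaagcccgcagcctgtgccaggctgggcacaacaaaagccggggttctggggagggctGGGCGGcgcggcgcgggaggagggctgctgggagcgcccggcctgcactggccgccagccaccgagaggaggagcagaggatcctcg
Sparc, chr11:55420031-55420330, minus strand: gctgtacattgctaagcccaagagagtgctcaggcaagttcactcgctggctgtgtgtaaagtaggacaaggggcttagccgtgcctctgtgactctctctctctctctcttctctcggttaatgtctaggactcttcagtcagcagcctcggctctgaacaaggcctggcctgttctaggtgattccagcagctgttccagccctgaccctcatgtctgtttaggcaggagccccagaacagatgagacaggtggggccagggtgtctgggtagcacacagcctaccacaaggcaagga
Col1a2, chr6:4505368-4505667, plus strand: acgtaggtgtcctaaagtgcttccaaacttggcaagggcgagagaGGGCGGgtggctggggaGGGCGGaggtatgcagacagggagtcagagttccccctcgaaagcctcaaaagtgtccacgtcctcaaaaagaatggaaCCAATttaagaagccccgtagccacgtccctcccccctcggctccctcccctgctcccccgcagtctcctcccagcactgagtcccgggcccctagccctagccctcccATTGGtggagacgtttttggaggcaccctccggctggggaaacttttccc
Col4a2, chr8:11312555-11312854, plus strand: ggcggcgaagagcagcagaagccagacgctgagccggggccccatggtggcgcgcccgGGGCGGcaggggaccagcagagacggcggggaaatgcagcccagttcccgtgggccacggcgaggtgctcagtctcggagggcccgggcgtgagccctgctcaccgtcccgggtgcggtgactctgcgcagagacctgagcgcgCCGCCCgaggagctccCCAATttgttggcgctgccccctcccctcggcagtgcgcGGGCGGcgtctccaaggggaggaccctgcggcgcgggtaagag
Col4a1, chr8:11312777-11313076, minus strand: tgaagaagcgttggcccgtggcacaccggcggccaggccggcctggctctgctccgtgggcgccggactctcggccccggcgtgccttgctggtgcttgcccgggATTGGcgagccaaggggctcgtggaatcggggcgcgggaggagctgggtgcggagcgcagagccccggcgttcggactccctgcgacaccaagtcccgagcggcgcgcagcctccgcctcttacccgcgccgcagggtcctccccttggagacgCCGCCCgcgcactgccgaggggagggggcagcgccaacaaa

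The windows of Col4a1 and Col4a2 share 78 bases, read on opposite strands. Timp2 held 1 CCAAT box and 1 GC box, Col1a2 held 2 of each, Col4a2 held 1 CCAAT box and 3 GC boxes, Col4a1 held 1 of each, and the Sparc window held no match to any of the 5 motifs. RefSeq windows were found for 28 of the 40 listed genes (33 windows, since some genes have several). A GC box stood in 22 of 33 (66.7%), against 35.7% of all 32851 windows, and the member windows had a median GC content of 60.3% against 52.7%. A CCAAT box stood in 33.3% against 37.4%, a TATA box in 6.06% against 13.6%, an AP-1 site in 3.03% against 7.81% and the PU.1 site in 0 of 33 against 3.20%. These are matches of letters in short windows and say nothing of binding.

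The size of the matrix differences varied among the stem cell arrays. Measured from the mean of the total cell arrays, the median over the 39 genes was 0.55, 0.42 and 0.24 on stem cell arrays 1, 2 and 3, and 0.046, 0.13 and −0.16 on total cell arrays 1, 2 and 3. Fibril and microfibril collagens were at 0.52, 0.52 and −0.021 in stem cell arrays, and at 0.11, 0.28 and −0.35 in total cell arrays. Basement membrane collagens were at 0.99, 0.59 and 0.50 in stem cell arrays, and at 0.030, 0.20 and −0.23 in total cell arrays. Replicate 3 was thus the lowest array of either group for both collagen classes.

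**Figure D5:**
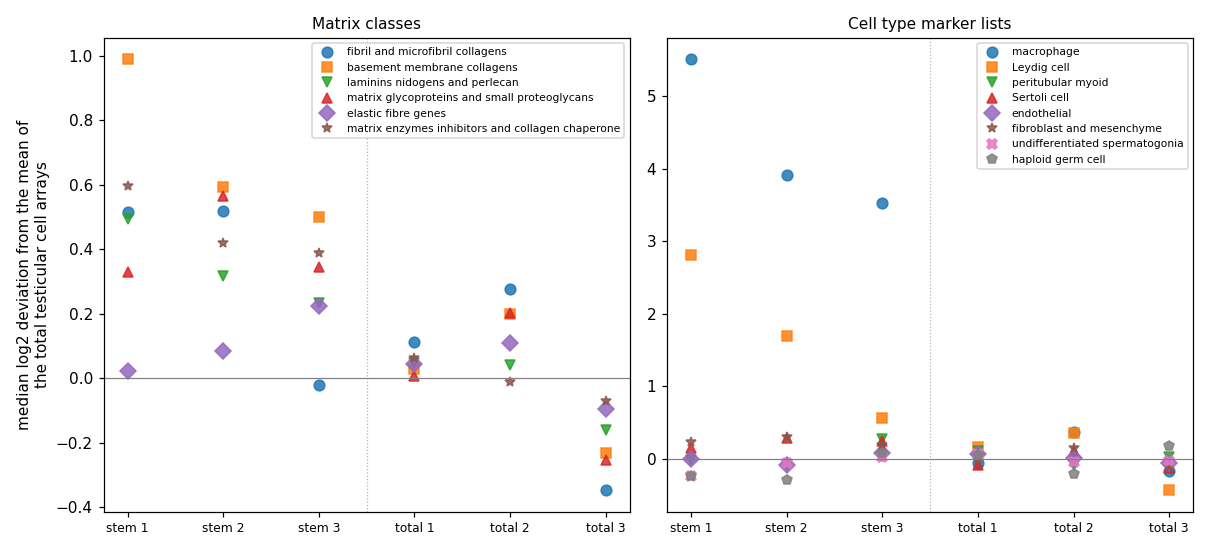
Median log2 deviation from the mean of the total cell arrays (vertical axes, with different ranges) on each stem cell array and each total cell array, for 6 classes of matrix genes (left) and 8 lists of cell type markers (right). Both collagen classes are lowest on array 3 of either group, the macrophage list is high on all stem cell arrays, and the Leydig list is highest on stem cell array 1.

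Markers of several cell types that make or border matrix differed between the same arrays, and their part in the matrix result was not tested. Of 14 measured macrophage markers, 11 rose and 0 fell, and their summed level (antilog values) ranged from 3765 to 11263 in stem cell arrays and from 1158 to 1244 in total cell arrays. Of 8 measured Leydig cell markers, 1 rose (Hsd17b11) and all 8 were higher, with summed levels of 1286 to 4168 against 656 to 1131. The Leydig median on stem cell arrays 1, 2 and 3 was 2.81, 1.70 and 0.56, and on total cell arrays 1, 2 and 3 it was 0.15, 0.35 and −0.44, so it too was lowest on replicate 3 of each group. Of 13 fibroblast and mesenchyme markers 0 passed by limma and 5 had an unadjusted p under 0.05 (summed levels 275 to 679 against 152 to 199). These were S100a4 (2.07), Vim (1.63), Pdgfra (1.24), Nr2f2 (0.64) and Cd34 (0.56). Most of the summed level in stem cell arrays was Vim (8.91, 7.98 and 7.43), and no sum without Vim was taken. The median difference over the 13 was 0.26, with 11 above 0 and 2 below. Pdgfra, a receptor of mesenchymal cells, had 5.26, 3.98 and 3.39 in stem cell arrays against 2.74, 3.11 and 3.05 in total cell arrays, and differed by 0.72 without stem cell replicate 1. Pdgfrb differed by 0.0044, and Fap and Nr2f1 had means below background.

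Markers of peritubular myoid cells, the contractile layer around the tubule, gave no call. Of 11 measured, 0 passed by limma and 3 were higher at an unadjusted p under 0.05 (27.3%, against 11.8% of all genes). These were Acta2 (0.60), Tpm2 (0.56) and Myl9 (0.54), whose groups did not overlap. Of the 11 differences, 7 were above 0 and 4 below. Summed levels were 479 to 797 in stem cell arrays and 444 to 677 in total cell arrays. Most of that sum was Actg2, which differed by −0.093. Its values were 8.39, 8.35 and 9.27 in stem cell arrays and 8.89, 8.33 and 9.08 in total cell arrays. No sum without Actg2 was taken. Of 13 Sertoli cell markers, only Clu rose, and the summed level was 1382 to 2741 against 727 to 908. Without Clu the other 12 summed to 631 to 662 in stem cell arrays and 444 to 582 in total cell arrays. Of 14 endothelial markers, 0 passed by limma and 0 had an unadjusted p under 0.05, with sums of 95.8 to 118 against 98.0 to 107 and Emcn, Esam and Tek below background. Markers checked against the label gave 0 of 12 undifferentiated spermatogonial genes past the threshold (2 at an unadjusted p under 0.05; sums 197 to 315 against 333 to 346, with Lin28a below background) and 0 of 11 haploid germ cell genes past it (0 at an unadjusted p under 0.05; sums 42425 to 52385 against 43554 to 53615). Most of the undifferentiated spermatogonial sum was Id4 (6.78, 7.87 and 7.69 in stem cell arrays, 7.95, 8.05 and 7.98 in total cell arrays, adjusted p = 0.232). Without Id4 the sums overlapped, at 81.5 to 96.7 in stem cell arrays and 80.1 to 88.7 in total cell arrays. The 2 at an unadjusted p under 0.05 went opposite ways, so 8.33% were higher and 8.33% lower, against 11.8% and 13.1% of all genes. Itga6, an integrin chain of stem cells and other cells, differed by 0.99 without overlap (limma adjusted p = 0.0739). Zbtb16 differed by −0.43 with overlapping groups (limma adjusted p = 0.178). Of the 12 differences, 9 were below 0 and 3 above.

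The profile of Dcn over the 6 arrays was most like those of Adgrl1, Gcsh, Sh3glb2, Ctsz and Trem2 among genes outside the set. Likeness was a Pearson correlation over the 6 arrays, given as a description, and these 5 were the highest of all non-member genes. The correlations ran from 0.988 to 0.998. The groups of all 5 genes did not overlap. That, like a shared order of arrays, is largely fixed by picking genes for their likeness to Dcn and is no separate result. Ctsz encodes a lysosomal cathepsin and Trem2 a receptor of macrophages; Ctsz had 8.09, 7.04 and 6.27 in stem cell arrays, against 3.61, 4.27 and 2.96 in total cell arrays, the same order of arrays as Dcn.

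Matrix genes outside the set had a median difference nearer to that of all genes. Of 113 measured of a further list of matrix genes, 2 rose and 0 fell, 19 were higher and 8 lower at an unadjusted p under 0.05, and the median difference was 0.079. These are 1.77% rising, against 1.63% of all genes, and at the unadjusted p 16.8% higher and 7.08% lower, against 11.8% and 13.1%. Tgfbi, a secreted adhesion protein induced by TGF-beta, rose by 2.11 (8.63, 7.38 and 6.84 in stem cell arrays, 5.59, 5.33 and 5.59 in total cell arrays, adjusted p = 0.0396), and 3 of its 4 probe sets passed. Igfbp7, a secreted protein of the insulin-like growth factor binding family, rose by 1.99 (7.99, 7.01 and 6.34 in stem cell arrays, 5.16, 5.51 and 4.70 in total cell arrays, adjusted p = 0.0431), with −0.13 on its lowest probe set. Both calls ended when any total cell array was left out, with differences of 2.03 to 2.16 for Tgfbi and 1.78 to 2.19 for Igfbp7, while 28 to 47 of all genes then rose. Without stem cell replicate 1, 2 or 3 the count among the 113 was 4, 7 or 13, with 324, 414 and 796 of all genes rising and 22, 527 and 93 falling.

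Genes of collagen processing and crosslinking mostly had differences above 0, with 12 of 14 positive and a median of 0.41. Of the 14, 6 were higher at an unadjusted p under 0.05 and 0 passed the limma threshold. Over all genes, 43.0% were above 0 and 11.8% were higher at that p. They ran from Pcolce (1.42, adjusted p = 0.111), an enhancer of procollagen cleavage, to P4ha2 (−0.31), a prolyl hydroxylase subunit. Matrix-degrading genes had a median of 0.16 over 26, from Adam10 (1.26, adjusted p = 0.0670) to Mmp10 (−0.44). Other collagens had a median of −0.099 over 18, from Col4a3 (0.29) to Col16a1 (−0.98, adjusted p = 0.0684), for which all stem cell values (5.46, 6.39 and 5.82) lay below all others (6.86, 6.83 and 6.93). Other basement membrane genes had a median of 0.0037 over 11, from Sparcl1 (1.30, adjusted p = 0.0933), a relative of Sparc, to Lamb3 (−0.83). Other elastic fibre genes had a median of 0.0067 over 11, from Ltbp3 (0.22) to Fbn2 (−0.60). The lowest of the other glycoproteins and proteoglycans, whose median was 0.079 over 33, was Thbs3 (−0.87).

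The arrays were washed on 4 modules and were sorted here into 3 fluidics rounds by gaps in their run times. Neither modules nor rounds held the groups evenly. Round 1 held stem cell array 1 with total cell arrays 1 and 3, round 3 held array 2 of each group, and round 2 held stem cell array 3 alone. Round 1 used modules 1, 2 and 3, and round 2 used module 4. Whether both belonged to a single run was not tested. Within round 1 the median difference over the 39 genes was 0.62 (33 positive), and within round 3 it was 0.33 (32 positive), against −0.094 and −0.054 over all genes. Within module 2, which held stem cell array 2 and total cell array 3, it was 0.49 (35 positive), against −0.048. Dcn differed by 1.93, 1.22 and 1.90 within round 1, round 3 and module 2, Sparc by 3.06, 1.24 and 2.14, and Timp2 by 1.94, 0.91 and 0.95. With the round as a block, 8 of 39 rose: Col1a2, Col3a1, Col4a2, Col6a1, Dcn, Mgp, Sparc and Timp2. That fit rests on the inferred rounds, which leave stem cell array 3 without a partner. In that fit 719 of 12393 genes rose and 48 fell. Leaving out stem cell replicate 3 gave the same 8 and Col4a1 (9 of 39, with 796 of all genes higher), and without stem cell replicate 1 or 2 the count was 3 of 39 in each case.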

How the data were processed

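RNA of 6 mouse testis cell samples was hybridised to 1 Affymetrix array each. The values are the log2 probe set summaries that the authors deposited, as their range (1.20 to 13.2) shows. MAS5 and RMA are named in the submitters' processing notes without role or version, and no source used here says how they were background-corrected and normalized. Chip and scan records are taken per the file headers: the 6 arrays had 1 chip lot, and 1 scanner read them on 1 day. Run starts less than 15 minutes apart were counted as 1 fluidics round.

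Groups came from the sample titles. The deposited values were tested without further normalization or filter, after 64 control probe sets were set aside, with limma 3.58.1 in R 4.3.3 (lmFit, eBayes with an intensity trend, two-sided, 4 residual and 5.21 prior degrees of freedom) and Benjamini-Hochberg adjustment over 22626 probe sets, at a threshold of 0.05. Background is the 95th percentile of the array means of 27 bacterial control probe sets. Of the probe sets tested, 1555 had no listed gene. Symbols followed the platform annotation and gene identifiers of GRCm38.p6, and probe sets annotated to several genes (691) were not used for naming. The number of arrays limits the precision.

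The members, the marker lists and the further matrix list were chosen with earlier results of these data known. All 39 measured members are given, with values by array for those past the threshold, the largest and smallest differences, those of highest mean and those whose probe sets differ by more than 1, and for others added after their values were seen. Of the further matrix genes, those past the threshold and the highest and lowest of each group are named. Promoter windows came from RefSeq. The procedure was tested on simulated data.

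Alternatives were quantile normalization, median centring, centring on 18 hybridization control probe sets, a filter on dim probe sets, replicate, round and module blocks, robust empirical Bayes, array weights, no intensity trend, each array left out, stricter thresholds and the mean of a gene's probe sets. Counting a gene where any probe set passes, marker sums without Id4 or Clu, and leaving out each array for 3 genes outside the set were added after seeing the data.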

Additional observations from a re-analysis of the deposited data

How the results depend on the processing

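The median difference of the 39 matrix genes was above 0 under every alternative that gives it, and the count past the threshold moved with the setting. Of 39, 1 rose with quantile normalization, the filter on dim probe sets, robust empirical Bayes and a minimum log2 difference of 1. With median centring 2 rose, with hybridization control centring 7, with array weights 5, with the fluidics round as a block 8, with the replicate block 9, and with any probe set of a gene 2. Calls over all genes moved too: 202 rose and 17 fell in the report, 237 and 46 with median centring, 516 and 221 with hybridization control centring, 524 and 79 with array weights, 719 and 48 with the round and 644 and 93 with the replicate block. Only module 2 holds both groups, so the fit with the fluidics module as a block compares stem cell array 2 with total cell array 3, and its calls say nothing about stability. With it, without the intensity trend, at 0.01 and with the mean of a gene's probe sets 0 rose, and leaving out 1 array gave 0 to 9. Among the 113 further matrix genes the counts were 10 with hybridization control centring, 6 with array weights, 12 with the round, 9 with the replicate block, 0 with the module, without the trend, at 0.01 and with the mean of probe sets, and 0 to 13 leaving out 1 array. All genes lay at a median of −0.054, at −0.16 with median centring and at −0.22 with hybridization control centring. The member median was 0.31 and 0.25 under these (0.42 in the report), so that it stood 0.47 above all genes in each case; leaving out 1 array gave 0.29 to 0.49.

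Dcn differed by 1.90 in the module fit, which is that 1 pair of arrays (adjusted p = 0.113). It missed the threshold without the trend (1.41, adjusted p = 0.0580) and when any 1 total testicular cell array was left out, with adjusted p from 0.0058 to 0.203 over the arrays left out. The sign turned for 10 members, none of which passed the threshold under these settings. Timp1 was −0.028 with quantile normalization, −0.012 with median centring and −0.066 with hybridization control centring, Lox −0.039 and −0.092 with the last 2 and −0.26 with the module, and Lama4 −0.027 with hybridization control centring. With the round as a block Col5a2 was 0.20 and Lamb2 0.20. In the single pair of arrays of module 2, Col5a2 was 0.42, Col6a3 0.30, Eln 0.080, Lama2 0.21, Lamb2 0.015 and Lum 0.17. With array weights Col5a2 was 0.036 and Eln 0.013. Leaving out 1 array gave −0.23 to 0.23 for Col5a2, −0.029 to 0.033 for Eln, −0.17 to 0.013 for Fbln2, −0.44 to 0.017 for Lama2, −0.26 to 0.17 for Lamb2, −0.049 to 0.21 for Lox, −0.20 to 0.017 for Lum and −0.14 to 0.55 for Timp1. The causes were not tested.

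The main fit did not pair arrays by replicate number. Over all probe sets, deviations from the group means correlated at −0.012, 0.012 and 0.30 for numbers 1, 2 and 3. A correlation over all probe sets cannot settle whether arrays of the same number belong together for the matrix genes. Signal near background limits what can be seen for 19 of 39 members, and 3 arrays a group limit the rest. Alternatives for linear values (a pseudocount or floor) were not run, since the deposited values are on the log2 scale.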
